A study of Mus musculus with 18 samples.

Results

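The genes described here are 10 that handle vitamin A in the gut, *Rbp2*, *Bco1*, *Lrat*, *Isx*, *Aldh1a1*, *Aldh1a2*, *Aldh1a3*, *Dhrs3*, *Rdh7* and *Rarb*. They were chosen by name for their known roles, with earlier results of these data known, and all 10 were found among the 55487 genes counted. RNA was sequenced from whole-thickness ileum of 18 mice, in 3 groups of 6: controls, IEC-*Ppara* heterozygotes and IEC-*Ppara* homozygotes. IEC-*Ppara* mice carried 1 or 2 copies of a CAG-*Ppara*,-*EGFP* transgene at the *Col1a1* locus together with *Villin-CreERT2*, whose Villin promoter drives the Cre in intestinal epithelium, and the controls lacked the Cre. All mice, controls included, were of the C57BL6/J background, ate chow, received 100 mg/kg tamoxifen on each of 3 days at 8 to 13 weeks of age and were sampled 2 weeks after the last injection. There were 3 female and 3 male controls, and 2 females with 4 males in both the heterozygous and the homozygous group. The strain comes from a single founder clone, and no group carried the activated Cre without the transgene.

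Vitamin A reaches the body as preformed retinyl esters and as β-carotene. In the enterocyte, BCO1 cleaves β-carotene to retinal, the binding protein RBP2 holds retinal and retinol, and LRAT esterifies retinol so that it leaves in chylomicrons. Retinol dehydrogenases oxidise retinol to retinal, DHRS3 reduces retinal back to retinol, and the ALDH1A enzymes make retinoic acid from retinal. Retinoic acid acts through RAR receptors paired with RXR, and in the gut it induces the homeobox factor ISX, which represses *Bco1*. PPARα also pairs with RXR, so both receptor families draw on the same partner. The comparison asks whether more *Ppara* in the epithelium goes with another level of this gene set.

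The depth on genes ran from 38528522 to 50376371 counts, so that 3 counts correspond to between 0.0596 and 0.0779 CPM (counts scaled to the library total, in parts per 1e6). *Ppara*, which the transgene raises, had a mean of 38.1 CPM in controls, 141 in heterozygous and 216 in homozygous mice, and no IEC-*Ppara* library overlapped the controls. The 7 distal ileal markers, *Fabp6* and *Slc10a2* among them, summed to a median of 8812 CPM in controls, 9005 in heterozygous and 6834 in homozygous mice, with a median log2 fold change of -0.21 in homozygous mice, 2 of 7 at an unadjusted p under 0.05 and 0 of 7 past the adjusted test. Of these 7, the log2 fold change against control was above 0 for 2 in homozygous and 5 in heterozygous mice. *Fabp6* had a mean of 4269 CPM in controls and 2897 in homozygous mice, while *Slc10a2* had 522 and 532. Of the 8 proximal markers only 3 passed the filter on low counts. The 10 B cell markers summed to between 17.6 and 577 CPM in controls, 14.5 and 326 in heterozygous and 12.5 and 93.6 in homozygous mice. All 10 had a negative log2 fold change against control, with medians of -3.03 in homozygous mice, where all 10 had an unadjusted p under 0.05 and 0 an adjusted one, and -1.48 in heterozygous mice, with 0 at either threshold. The medians of the sum were 20.2, 19.5 and 15.3 CPM, and control 2 and control 3 had B cell scores (mean log2 CPM) of 5.72 and 5.39, against at most 0.35 in the other controls. The 4 libraries with the highest B cell score were control 2, control 3, heterozygous 2 and homozygous 1. In whole tissue, fewer cells of a type and less RNA per cell cannot be told apart.

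Of the 10 genes, *Bco1* and *Rarb* have a pair of nuclear receptor hexamers close to a start, shown here because PPARα with RXR favours pairs 1 base apart (DR1) and RAR with RXR favours pairs 2 or 5 bases apart (DR2, DR5). The sequences are those of RefSeq on GRCm38.p6, 250 bases before to 50 bases after each start, and 9 of the 10 genes had such a window, *Aldh1a3* being the exception. The hexamers searched were the consensus AGGTCA, the variant form AGTTCA, the further form GGGTCA and the last form GGTTCA, in any pairing as direct repeats on both strands, and the capitals mark them. In *Bco1* the DR1 lies 56 to 44 bases before the start, on the strand opposite to the gene, at chr8:117095801-117095830. In *Rarb* the DR5 lies 53 to 37 bases before a start inside the gene, on the gene's own strand, at chr14:16575506-16575535 of the minus strand.
*Bco1*: ttgggaacTGACCTtTGACCTaacacacac
*Rarb*: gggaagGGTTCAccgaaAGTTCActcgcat
Of 32851 promoters of this length, 0.222% held a DR1, 0.268% a DR2 and 0.0974% a DR5 by the same search. A match describes the letters only, and binding was not measured.

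Per length, *Rbp2* was the most abundant of the 10 in control ileum, at 141 ± 25.5 FPKM (SD, n = 6). *Isx* followed at 82.1 ± 10.8 FPKM and *Aldh1a1* at 47.6 ± 5.21 FPKM. The ranges of these neighbours did not overlap. *Dhrs3* stood at 16.4 ± 3.97, *Rdh7* at 12.0 ± 4.43, *Aldh1a2* at 10.2 ± 4.13, *Aldh1a3* at 7.09 ± 0.733 and *Bco1* at 6.58 ± 0.551 FPKM, and within this run each gene overlapped the next. *Lrat* was below all of them at 3.22 ± 0.322 FPKM, and *Rarb* was lowest at 0.173 ± 0.0510 FPKM. The order thus runs from the retinoid carrier of the enterocyte down to a receptor that stayed under 3 CPM in every library. The plot of FPKM by gene shows that the genotypes lie on top of each other on this scale.

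**Figure D1:**
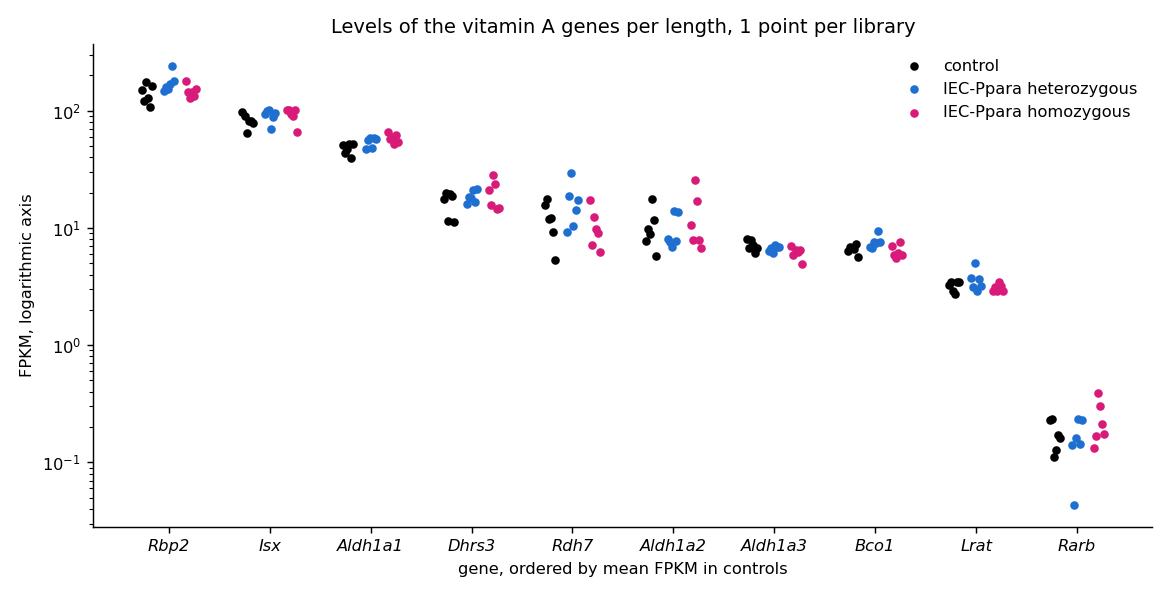
FPKM of the 10 vitamin A genes (logarithmic vertical axis) in each of 18 ileum libraries, coloured by genotype and ordered by the control mean. Levels run from 141 FPKM for *Rbp2* to 0.173 FPKM for *Rarb* in control means, with the 3 genotypes overlapping for each gene.

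Under epithelial *Ppara* overexpression, none of the 10 genes passed its test. After the filter (more than 3 CPM in at least 4 libraries) 9 of them were tested, *Rarb* being too low, and 0 of 9 passed edgeR's quasi-likelihood test at an adjusted p under 0.05 in each comparison. The share of all 12645 genes that passed was 0.411% in homozygous mice and 0.293% in heterozygous mice, each against control, and 0.00791% between the IEC-*Ppara* groups. DESeq2 also called 0 of the 9, where it called 1.08%, 0.648% and 0.0712% of all genes. At such shares 0 of 9 is no result about these genes. At an unadjusted p under 0.05 the counts in the same order were 2 (*Aldh1a1*, *Aldh1a3*), 3 (*Aldh1a1*, *Bco1*, *Rbp2*) and 2 (*Bco1*, *Rdh7*) of 9, against 8.06%, 5.29% and 7.61% of all genes. The log2 fold change was above 0 for 5, 7 and 3 of the 9, against 48.1%, 47.5% and 49.9% of all genes. For no gene of the 9 did the CPM of 2 groups lie apart, where 0.854%, 0.467% and 0.269% of all genes did so. That too is no result about the 9. The median log2 fold change of the 9 was 0.06 in homozygous and 0.21 in heterozygous mice against control, and -0.15 between the IEC-*Ppara* groups, beside medians of -0.0048, -0.0058 and -0.00014 over all genes.

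**Figure D2:**
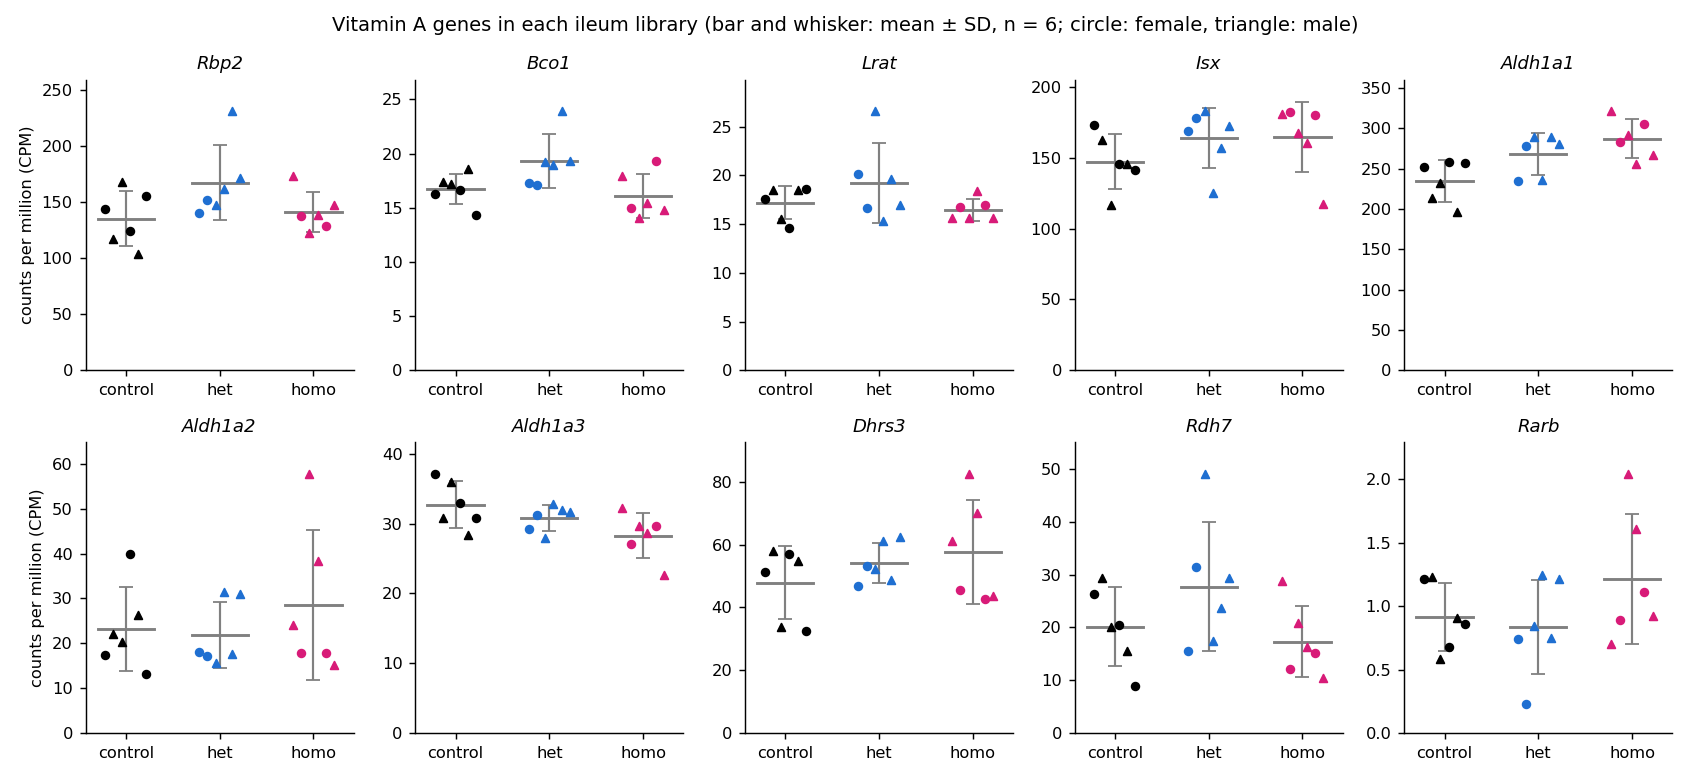
CPM of each gene in each library by genotype (het, heterozygous; homo, homozygous; circles, females; triangles, males), with the mean and SD of 6 libraries; axes start at 0. In each panel the groups overlap, and of the 9 tested genes *Rdh7* and *Aldh1a2* spread most widely among mice.

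Among the genes of uptake and storage, *Rbp2*, *Bco1* and *Lrat* had their highest means in heterozygous mice and were near the control level in homozygous mice. *Rbp2* (ENSMUSG00000032454, GRCm38 chr9:98486115-98509781) ran from 103 to 168 CPM in controls (median 134), from 140.1 to 231 in heterozygous (median 157) and from 122 to 174 in homozygous mice (median 138). Only 2 heterozygous libraries lay above all controls, and heterozygous 5 stood far above the rest. Its log2 fold change was 0.34 ± 0.15 (SE; adjusted p = 0.927 by edgeR) in heterozygous and 0.06 ± 0.15 (adjusted p = 0.961) in homozygous mice, the latter with a 95% interval of -0.26 to 0.38. Without heterozygous 5 the heterozygous value was 0.21, and the homozygous value ran from -0.012 (without control 5) to 0.14 (without control 3) as single libraries were left out. The 8 villus enterocyte markers, with which *Rbp2* went among mice (r = 0.69 over 18 libraries), had a median log2 fold change of 0.24 in heterozygous mice, 2 of 8 at an unadjusted p under 0.05 and 0 of 8 at an adjusted one. They summed to between 16594 and 25129 CPM in controls, 16915 and 23337 in heterozygous and 16266 and 23070 in homozygous mice, and their part in the *Rbp2* values was not tested.

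*Bco1* (ENSMUSG00000031845, chr8:117095854-117133720), the β-carotene cleaving enzyme with the DR1 shown above, ran from 14.3 to 18.5 CPM in controls (median 16.9), from 17.1 to 23.9 in heterozygous (median 19.1) and from 14.1 to 19.3 in homozygous mice (median 15.2). In 4 heterozygous mice it was above all controls, and in 4 homozygous mice below all heterozygous ones. The log2 fold change was 0.25 ± 0.10 (adjusted p = 0.870 by edgeR) in heterozygous and -0.05 ± 0.10 (adjusted p = 0.950) in homozygous mice against control. Between the IEC-*Ppara* groups it was -0.30 ± 0.10 (adjusted p = 0.608). The homozygous value against control had a 95% interval of -0.27 to 0.17. Without heterozygous 5, again the highest library, the heterozygous value was 0.16, and the homozygous value ran from -0.11 without homozygous 5 to -0.0043 without homozygous 3.

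*Lrat* (ENSMUSG00000028003, chr3:82892579-82903973), the enzyme that makes retinyl esters, ran from 14.6 to 18.6 CPM in controls, from 15.4 to 26.6 in heterozygous and from 15.6 to 18.4 in homozygous mice. The homozygous range lay inside the control range, and heterozygous 3 was the highest library, followed by heterozygous 1 at 20.1 CPM. The log2 fold changes were 0.19 ± 0.12 in heterozygous and -0.06 ± 0.12 in homozygous mice (adjusted p = 1.00 and 0.945 by edgeR), and the heterozygous value was 0.079 without heterozygous 3. The homozygous *Lrat* value ran from -0.12 without control 4 to -0.010 without control 6. *Isx* (ENSMUSG00000031621, chr8:74873173-74893506), the retinoic acid-induced repressor of *Bco1*, ran from 116 to 173 CPM in controls (median 145), from 125 to 183 in heterozygous (median 171) and from 117 to 182 in homozygous mice (median 174). A lone low library, homozygous 6 at 117 CPM, set the lower end of the homozygous group. Its log2 fold changes were 0.19 ± 0.11 and 0.17 ± 0.11 (adjusted p = 1.00 and 0.734), and 0.24 in homozygous mice without homozygous 6.

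Of the 3 retinaldehyde dehydrogenases, *Aldh1a1* had a higher and *Aldh1a3* a lower mean in homozygous mice than in controls, and neither passed the adjusted test. *Aldh1a1* (ENSMUSG00000053279, chr19:20492715-20643465) ran from 196 to 258 CPM in controls (median 242), from 235 to 289.8 in heterozygous (median 279.5) and from 255 to 322 in homozygous mice (median 287). It was above every control in 4 heterozygous and 5 homozygous mice, the nearest to separation among the 10 genes. The log2 fold change was 0.29 ± 0.09 (95% interval 0.10 to 0.49, adjusted p = 0.332 by edgeR) in homozygous and 0.22 ± 0.09 (adjusted p = 0.870) in heterozygous mice. In linear terms the homozygous value was 1.22-fold.

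*Aldh1a1* went with the 3 tested proximal intestine markers among mice (r = 0.63 over 18 libraries, 0.41 within genotypes). With the 7 distal markers its r was 0.03 over 18 libraries and 0.48 within genotypes. The proximal list summed to between 90.5 and 171 CPM in controls, 123 and 281 in heterozygous and 108 and 242 in homozygous mice. Its markers *Gata4*, *Lct* and *Pdx1* did not pass the filter. Of the 3 tested, the apolipoprotein gene *Apoa4*, named after its values were seen, had means of 32.5, 78.7 and 82.4 CPM in control, heterozygous and homozygous mice (log2 fold changes of 1.29 ± 0.49 and 1.31 ± 0.49, adjusted p = 0.732 and 0.482 by edgeR), while *Cybrd1* and *Slc40a1* had log2 fold changes between -0.07 and 0.04. The genotype difference in the proximal score is that of *Apoa4*, and the proximal r over 18 libraries and the covariate value carry it too. With the proximal score as a covariate the homozygous log2 fold change was 0.19, and with the smooth muscle score it was 0.38 (adjusted p = 0.0846 by edgeR, the lowest over the alternatives, which reached 0.901). *Aldh1a3* (ENSMUSG00000015134, chr7:66390890-66427517) ran from 28.4 to 37.2 CPM in controls (median 31.9), from 28.0 to 32.8 in heterozygous (median 31.5) and from 22.6 to 32.2 in homozygous mice (median 29.1). In 2 homozygous mice it was below all controls. Its log2 fold change was -0.21 ± 0.09 (adjusted p = 0.552) in homozygous and -0.06 ± 0.09 in heterozygous mice, the latter from -0.099 without control 5 to -0.014 without control 1.

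*Aldh1a2* (ENSMUSG00000013584, chr9:71215789-71296243), the form known from mesenchyme, mesothelium and gut dendritic cells, varied far more between mice than between genotypes. It ran from 13.1 to 39.9 CPM in controls (median 21.2), from 15.6 to 31.5 in heterozygous (median 17.9) and from 15.1 to 57.9 in homozygous mice (median 21.0). A lone library, homozygous 3, was above all others, and the next highest were control 4 and homozygous 4. The log2 fold change was 0.31 ± 0.31 (adjusted p = 0.842 by edgeR) in homozygous and -0.04 ± 0.31 (adjusted p = 1.00) in heterozygous mice. The homozygous value was -0.0056 without homozygous 3 and 0.51 without control 4, and the heterozygous value ran from -0.17 without heterozygous 4 to 0.16 without control 4.

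*Dhrs3* (ENSMUSG00000066026, chr4:144892827-144928209), the retinal reductase that retinoic acid induces, ran from 32.6 to 58.0 CPM in controls (median 53.0), from 46.8 to 62.4 in heterozygous (median 52.7) and from 42.6 to 82.6 in homozygous mice (median 53.3). The group medians lay within 1 CPM of each other, and the highest library was again homozygous 3. The log2 fold change was 0.27 ± 0.16 (adjusted p = 0.692 by edgeR) in homozygous and 0.21 ± 0.16 (adjusted p = 1.00) in heterozygous mice. The homozygous value was 0.16 without homozygous 3, and the heterozygous one 0.14 without control 3 or control 6. *Rdh7* (ENSMUSG00000040134, chr10:127884028-127888817), a retinol dehydrogenase, spanned 5.56-fold between its lowest and highest library, the widest of the 9 tested. It ran from 8.84 to 29.4 CPM in controls (median 20.3), from 15.5 to 49.1 in heterozygous (median 26.4) and from 10.3 to 28.8 in homozygous mice (median 15.8). In 3 homozygous mice it was below all heterozygous ones, and the log2 fold change between these groups was -0.71 ± 0.30 (adjusted p = 0.642). Against control it was 0.50 ± 0.30 in heterozygous and -0.21 ± 0.30 in homozygous mice, and the heterozygous value was 0.26 without heterozygous 3. The homozygous value ran from -0.42 without homozygous 1 to -0.089 without control 2, and the value between the IEC-*Ppara* groups from -0.92 without homozygous 1 to -0.47 without heterozygous 3.

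*Rarb* (ENSMUSG00000017491, chr14:16430839-16819156), the retinoic acid receptor whose gene is itself a retinoic acid target, had from 10 to 90 counts per library. It ran from 0.586 to 1.23 CPM in controls, from 0.229 to 1.24 in heterozygous and from 0.698 to 2.05 in homozygous mice. The homozygous mean exceeded the control mean by 0.301 CPM (p = 0.247) by a two-sided exact permutation test over all arrangements of 6 against 6 libraries, in which the smallest possible p is 0.00216. Without homozygous 3, the highest library, the difference was 0.135 CPM. The heterozygous mean minus the control mean was -0.0758 CPM (p = 0.721, same exact test). Without heterozygous 2 that difference was 0.0457 CPM, and without heterozygous 4 it was -0.157 CPM. Of the 100-base stretches of its transcripts, 30.1% also occur in another gene, most often *Top2b*, which overlaps *Rarb* on the opposite strand at a mean of 87.1 CPM, and whether the counting used strand is not given in the sources used here. The *Rarb* values are therefore uncertain.

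**Figure D3:**
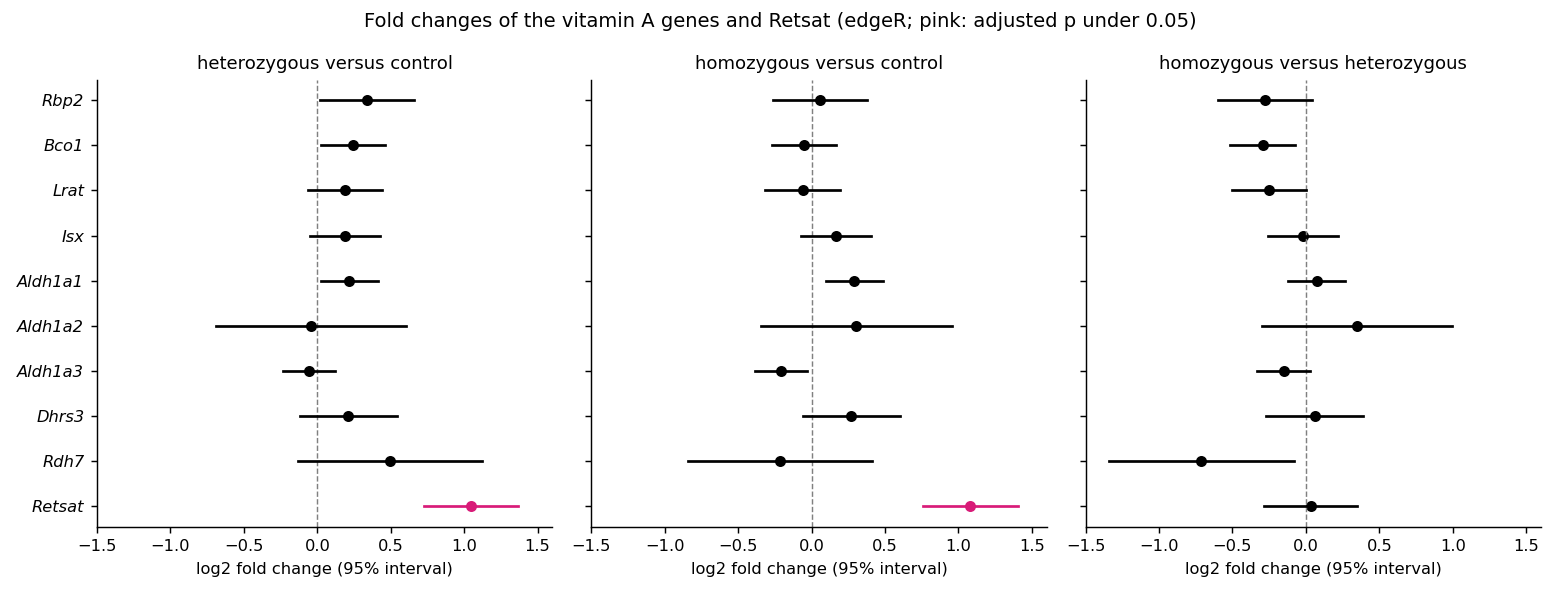
Log2 fold change with its 95% interval (edgeR) for the 9 tested vitamin A genes and *Retsat* in the 3 comparisons; pink marks an adjusted p under 0.05. *Retsat* lies near 1 against control, and the intervals of *Aldh1a2* and *Rdh7* are the widest.

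The genes varied between mice along different lines. Of 36 pairs of the 9 genes, 1 had a Pearson's r over 0.5 across the 18 libraries, *Aldh1a2* with *Dhrs3* at 0.80, and it was 0.83 within genotypes. Across the 18 libraries the other pairs lay between -0.42 and 0.49, and the median over all pairs was 0.13. Within genotypes *Isx* with *Rdh7* (0.52), *Dhrs3* with *Rdh7* (0.51) and *Rbp2* with *Aldh1a1* (0.51) were also over 0.5. *Aldh1a2* followed fibroblast markers (r = 0.83), mesothelial markers (0.81), dendritic cell and macrophage markers (0.75), adipocyte markers (0.71), smooth muscle markers and markers of enteric neurons and glia (0.66 each) and endothelial markers (0.61), and ran against villus enterocyte markers (-0.56). *Dhrs3* did likewise, with 0.75 for fibroblasts, 0.65 for endothelium, 0.63 for mesothelium and -0.56 for villus enterocytes. These r are descriptions over 18 points that share library, depth and a fixed total of reads.

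Markers of the gut wall differed between libraries, and their highest mesothelial, fibroblast and smooth muscle sums were those of the library homozygous 3. The 7 mesothelial markers summed to between 10.8 and 184 CPM in controls, 9.43 and 121 in heterozygous and 32.6 and 301 in homozygous mice, all 7 with a positive log2 fold change in homozygous mice (median 0.65) and 0 of 7 past the adjusted test. The 7 fibroblast markers summed to between 810 and 2379, 667 and 1662, and 1275 and 2867 CPM in the same order. The medians of the mesothelial sum were 53.7, 45.4 and 55.8 CPM and those of the fibroblast sum 1189, 1290.1 and 1469 CPM, with all 7 fibroblast markers positive in homozygous mice (median log2 fold change 0.36). The 10 smooth muscle markers summed to between 682 and 6140 CPM in controls (median 3923), 852 and 4510 in heterozygous (median 3605) and 4157 and 9690 in homozygous mice (median 5008). In homozygous mice against control all 10 of them (median log2 fold change 0.57) and all 4 tested markers of enteric neurons and glia (median 0.61) were positive, and 0 passed the adjusted test. In heterozygous mice against control the log2 fold change was above 0 for 0 of 10 smooth muscle (median -0.18), 0 of 7 mesothelial (median -0.38), 1 of 7 fibroblast (median -0.10) and 2 of 4 neuron and glia markers (median 0.02), again with 0 past the adjusted test. The higher homozygous values were thus not those of homozygous 3 alone for smooth muscle and fibroblasts. For both, the lowest homozygous sum stood above the control median. The sum of the 5 neuron and glia markers did so by little, at 13.96 against 13.70 CPM. For mesothelium the lowest homozygous sum was below the control median. The 5 adipocyte markers summed to between 25.3 and 632 CPM in controls, 27.6 and 575 in heterozygous and 51.4 and 496 in homozygous mice, and the 5 libraries with the highest adipocyte score (control 4, heterozygous 4 and 6, homozygous 3 and 4) were also the 5 with the most *Aldh1a2*. The part of fat in the *Aldh1a2* values was not tested. No marker of these lists was at 0 in every library. With the mesothelial score as a covariate the homozygous log2 fold change of *Aldh1a2* was -0.03 and that of *Dhrs3* 0.15. The heat map of marker lists sets these genes apart from *Rbp2* and *Lrat*, whose r with fibroblast markers was -0.62 and -0.43.

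**Figure D4:**
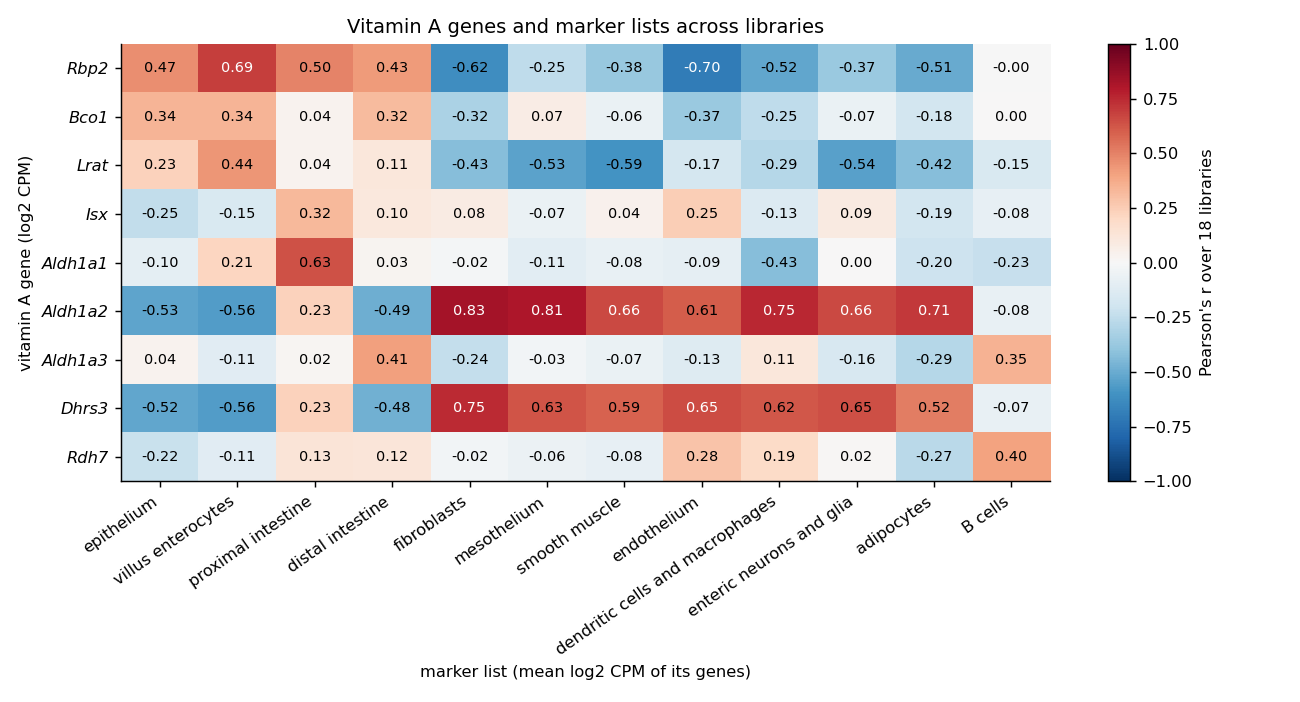
Pearson's r over 18 libraries between each vitamin A gene (rows) and the mean log2 CPM of each marker list (columns), red positive and blue negative. *Aldh1a2* and *Dhrs3* are positive with fibroblast, mesothelial and smooth muscle lists, and *Rbp2* is positive with the villus enterocyte list (0.69).

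The genes nearest to each pattern over 18 libraries were described by r alone. They were picked as the highest r among all genes tested, so their values are high in part through that choice. How high an r would be reached by chance was not tested, which matters most for the lower values, those of *Isx* and *Bco1*. For *Aldh1a2* they were *Ctsd*, *Mras* and *C1ra* (0.95 each), for *Dhrs3* *Ces2g*, *Map1lc3b* and *Csad* (0.91 each), and for *Rdh7* *Ces1g* (0.89), *Dglucy* and *Slc25a45* (0.87 each). For *Aldh1a1* they were *Scp2*, *Cda* (0.84 each) and *Abhd6* (0.83), for *Rbp2* *Spint1*, *Cgrrf1* (0.84 each) and *Pdcd6* (0.82), and for *Lrat* *Themis3*, *Adgrg7* and *Ocln* (0.86 each). For *Isx* they were *Plpp5* (0.78), *Slc35f5* and *Stk25* (0.77 each), for *Bco1* *Slc5a11* (0.76), *Tmem230* (0.73) and *Depdc7* (0.72), and for *Aldh1a3* *B3galt4* (0.86) and *Maea* (0.79).

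Sex was given for each mouse, and the genotype effect was compared between females and males. None of the 9 genes passed, by edgeR or by DESeq2, in either comparison with control, and over all genes edgeR called 0 in both, with 905 (heterozygous) and 258 (homozygous) at an unadjusted p under 0.05 and 223 and 0 by DESeq2. The lowest p among the 9 was that of *Aldh1a1* in heterozygous mice (adjusted p = 0.591), with log2 fold changes of 0.41 in males and -0.01 in females. With 2 females in each IEC-*Ppara* group these estimates are imprecise.

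Beyond the 10 genes, *Retsat* rose in both IEC-*Ppara* groups. It encodes retinol saturase, which turns retinol into dihydroretinol, and it is one of 44 further genes of vitamin A uptake, transport, oxidation, breakdown and reception, of which 31 were tested. *Retsat* (ENSMUSG00000056666, chr6:72598475-72608425) ran from 29.2 to 45.0 CPM in controls (median 32.2), from 48.8 to 91.5 in heterozygous (median 71.0) and from 59.6 to 92.7 in homozygous mice (median 73.3). No IEC-*Ppara* library overlapped the controls, and the 2 IEC-*Ppara* groups overlapped each other. The log2 fold change was 1.08 ± 0.15 (adjusted p = 0.00087 by edgeR) in homozygous and 1.05 ± 0.15 (adjusted p = 0.00147) in heterozygous mice, and 0.03 ± 0.15 between them. The *Retsat* call rests on the study's own samples, so it is not independent evidence. Leaving out the 4 libraries of highest B cell score, control 2, control 3, heterozygous 2 and homozygous 1, gave 0.95 (adjusted p = 0.0631) and 1.01 (adjusted p = 0.0574), with 14 libraries left. Its promoter window held no DR1, DR2 or DR5. By the same search only 0.222%, 0.268% and 0.0974% of all promoters held them, so their absence is no result about *Retsat*. Of its 100-base stretches, 9.69% also occur in another gene, most often *Gm45053*, which overlaps *Retsat* on the opposite strand.

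**Figure D5:**
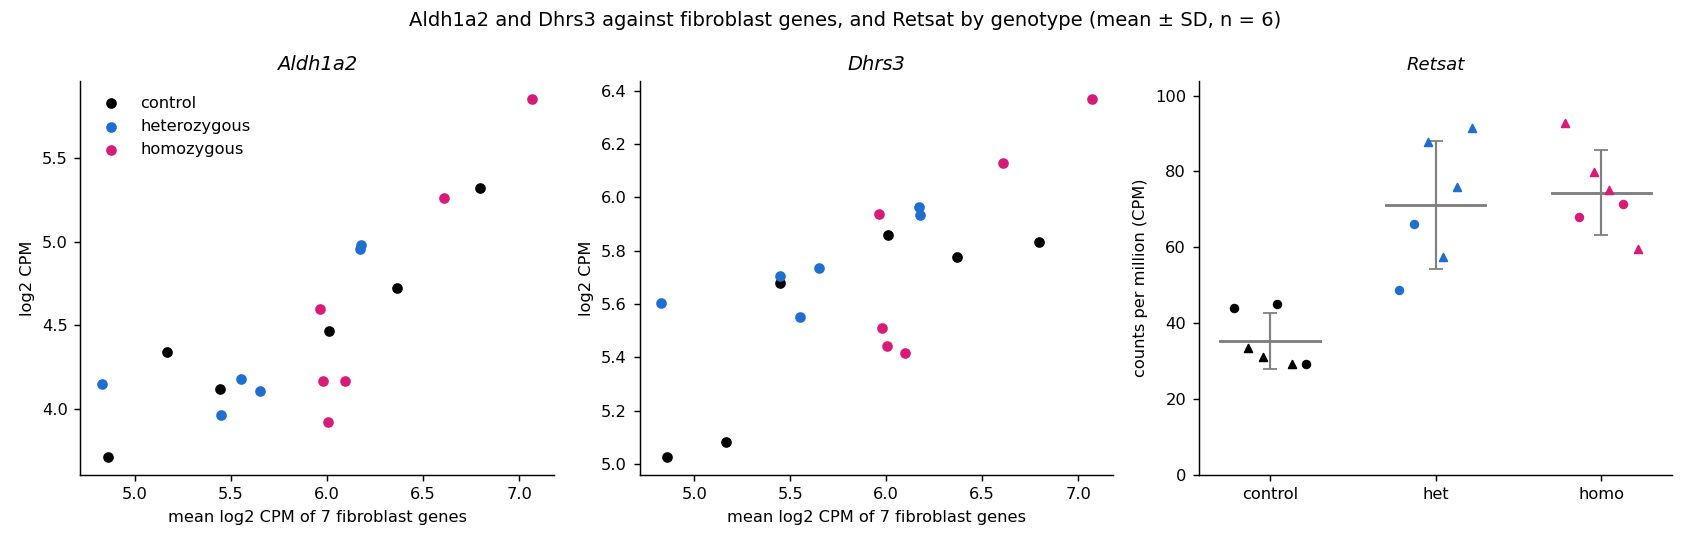
Left and middle, log2 CPM of *Aldh1a2* and *Dhrs3* against the mean log2 CPM of 7 fibroblast genes in 18 libraries; right, *Retsat* CPM by genotype (circles, females; triangles, males; mean and SD, n = 6). Libraries with more fibroblast RNA have more *Aldh1a2* and *Dhrs3* (r = 0.83 and 0.75), while *Retsat* separates the controls from both IEC-*Ppara* groups.

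*Retsat* was the only 1 of the 31 to pass in each comparison with control, and 0 passed between the IEC-*Ppara* groups. The number at an unadjusted p under 0.05 was 4, 4 and 1 of 31, beside 8.06%, 5.29% and 7.61% of all genes, where 0.411%, 0.293% and 0.00791% passed the adjusted test, and the medians of the log2 fold change were 0.02, 0.06 and -0.07. Named after their values were seen, the others at an unadjusted p under 0.05 were *Dhrs4* and *Rdh16* in both comparisons with control, *Rbp7* in homozygous mice against both other groups, and the lipase gene *Lipe* in heterozygous mice. *Dhrs4*, a retinal reductase of peroxisomes, had log2 fold changes of 0.34 ± 0.09 (adjusted p = 0.144 by edgeR) in homozygous and 0.37 ± 0.09 (adjusted p = 0.118) in heterozygous mice. DESeq2 called *Dhrs4* in both. Of the receptors, *Rara*, *Rarg*, *Rxra* and *Rxrb* were tested, with log2 fold changes between -0.08 and 0.21 in homozygous and 0.01 and 0.09 in heterozygous mice and none past the test.

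Genes that retinoic acid is known to induce were counted in the same way. Of 19 such genes, 4 of them among the 10 above, 14 were tested and 0 passed in each comparison by edgeR or by DESeq2, with 3, 1 and 2 at an unadjusted p under 0.05. Over all genes edgeR called 0.411%, 0.293% and 0.00791%, with 8.06%, 5.29% and 7.61% at an unadjusted p under 0.05, so that 0 of 14 is no result about this list. Their median log2 fold change was 0.10 in homozygous and 0.00 in heterozygous mice against control and 0.11 between the IEC-*Ppara* groups. *Cyp26b1*, which breaks down retinoic acid and is itself a target, had 0.02 ± 0.20 in homozygous and 0.29 ± 0.20 in heterozygous mice.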

How the data were processed

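Whole-thickness ileum of 18 mice was grouped by the genotype in the labels, with 1 library per mouse. The authors selected poly-A RNA, used STAR to align reads to GRCm38 (Ensembl primary assembly) and featureCounts to count unambiguous reads per gene. Counts were deposited without any scaling. Deposited CPM values equal count divided by library total, and the deposited FPKM values divide this by gene length. Deposited log2 values are moderated log2 CPM, used only as an alternative.

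Genes above 3 CPM in at least 4 libraries were kept (13709, of which 12645 protein-coding were tested) with edgeR 4.0.16 (quasi-likelihood test, TMM, all 18 libraries in 1 fit, no covariates) in R 4.3.3. Benjamini-Hochberg adjustment ran over all genes tested, at 0.05. The pipeline was also run on simulated data, with changes larger than those of the 9 genes. That run does not bear on changes of their size. *Rarb*, below the filter, was compared by an exact permutation test of CPM. Likeness is Pearson's r of log2 CPM with a prior count of 2, as is a list score, the mean over tested genes. Same-numbered libraries of different groups were checked for pairing, and 9 of 18 pairs had r over 0.1 with genotype means removed. Their median r was 0.055, against -0.033 for the other pairs. These values cannot settle whether the libraries pair, and the main fit used no pairing. Alternatives were DESeq2 1.42.0, limma 3.58.1 (voom, and trend on the deposited log2 CPM), other scalings, filters and biotypes, only the libraries compared, sex, the replicate number, marker scores, each library left out, and a robust fit. Promoters came from RefSeq, and shared sequence was counted over 100-base stretches of GENCODE transcripts. Tables were handled in Python 3.11.15.

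The genes and lists were chosen with earlier results of these data known. Named are the 10 genes, *Ppara*, genes of the wider list past the test, and the genes of highest r, 3 for each gene and 2 for *Aldh1a3*. Other genes of the lists were named after their values were seen. For some genes a result is not reported here.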

Additional observations from a re-analysis of the deposited data

Results flagged for a closer look

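Of 33 groups of 6 libraries checked for a single distant library (gap over range above 0.625), 3 were picked out, and chance alone picks out about 1 in 20. *Rbp2* in heterozygous 5 stood at 231 CPM, with the other 5 heterozygous libraries between 140.1 and 172 CPM. *Bco1* in the same library stood at 23.9 CPM, with the others between 17.1 and 19.3 CPM. *Isx* in homozygous 6 stood at 117 CPM, with the others between 160.1 and 182 CPM.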

How the results depend on the processing

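Over 35 alternatives in each of 3 comparisons, the 9 tested genes gave 945 values, of which 918 kept their direction and stayed uncalled, and 27 uncalled values changed sign. None was called; the lowest adjusted p, 0.0846, was that of *Aldh1a1*. *Rarb* gave 42 values, 41 of the same direction (the other was heterozygous against control without heterozygous 2, at 0.0457 CPM), with p of at least 0.106. *Retsat* kept its log2 fold change between 1.01 and 1.16 (homozygous) and 0.97 and 1.13 (heterozygous) as each library was left out, and lost its call without the 4 libraries of highest B cell score, an alternative added after seeing the data. There the wider list had 0 calls in both comparisons with control, against 1 in the reported fit; fewer libraries were fitted. The list had 2 calls in both by DESeq2 and 2 without control 1, the second being *Dhrs4*; over all genes these settings called 136 and 82 genes by DESeq2 and 65 and 50 without control 1, against 52 and 37. Leaving out each library gave 1 to 2 calls in both, the 2 also without heterozygous 1 for heterozygous mice, and the cause was not tested. With the replicate block, *Aldh1a2* had a log2 fold change of 0.25 and *Dhrs3* 0.26 in homozygous mice, and the block changed none of the calls of the 9 genes or *Retsat*. Over all genes the block called 49, 22 and 0 genes, against 52, 37 and 1. For *Rarb*, 10 to 90 counts per library limit the precision.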

Other observations

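Other groups of the vitamin A pathway are given by their counts. The 3 genes of uptake and cleavage had log2 fold changes from -0.19 to 0.72 in homozygous and from -0.05 to 0.21 in heterozygous mice against control, and the 6 genes of retinol binding and transport from -0.34 to 0.55 and from -0.68 to 0.06. Of the 20 oxidoreductases, 13 were tested, with medians of 0.03 and 0.12, and *Retsat* was the 1 past the test.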
